A study of Mus musculus with 30 samples.

Results

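The non-clustered protocadherins are cadherin-family adhesion receptors whose genes stand apart from the large protocadherin gene clusters of mouse chromosome 18. Members of this group, chosen by symbol, were described in tumors grown from 5 fibrosarcoma lines: Pcdh1, Pcdh7, Pcdh8, Pcdh9, Pcdh10, Pcdh12, Pcdh17, Pcdh18, Pcdh19 and Pcdh20. They were 10 of the 48440 genes in the count table. Pcdh17 was singled out because it was lower in both lines classed as non-sensitive to NK1.1+ cells than in each of the 3 sensitive lines, so those differences are given as a description with no test, and the other 9 genes were taken by family name.

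The data were bulk mRNA sequencing counts of 30 tumors, each grown under the skin of a C57BL/6 background mouse from a primary line that had been induced with the carcinogen 3-methylcholanthrene (MCA). The study asked what distinguishes tumors that NK1.1+ cells restrain from tumors that they do not. It classed MCA-943 (4 tumors) and MCA-969 (8 tumors) as non-sensitive and MCA-948 (8 tumors), MCA-970 (6 tumors) and MCA-972 (4 tumors) as sensitive, and CD45+ cells were removed with magnetic beads before the RNA was prepared. The labels gave the mouse strain Ncr1Cre for MCA-943 and Ncr1Cre R26DTA, in which NKp46+ cells are deleted, for the other 4 lines. Strain and line thus cannot be told apart for MCA-943. The labels did not say whether the strain is that of the host or of the mouse in which the line arose. In its screen of sensitivity the study transplanted lines into C57BL/6 mice, and it grouped lines by the genotype of the mouse injected with MCA. The labels also marked W-1D and W-2D of MCA-969 as sensitive, against the class of their line. No treatment, age or time was given. Each line came from 1 primary tumor, so tumors of a line show the spread within that line and the class rests on 2 lines against 3. Titles carried a letter (W or a), whose meaning was not given, and an animal code, and tumors are named here by line, letter and code. Library numbers in the column headers fell into 3 stretches of numbers, called runs here although the headers name no batch. Run 1 held 6 MCA-969 and all 4 MCA-972 tumors, run 2 held 2 MCA-948, 2 MCA-969 and all 6 MCA-970 tumors, and run 3 held all 4 MCA-943 and 6 MCA-948 tumors. A sample index in the same headers divides the tumors otherwise. It goes from 3 to 24 over runs 3 and 2 and 2 tumors of run 1 (W-2G and W-R of MCA-969), and from 1 to 8 over the other 4 MCA-969 tumors, all of letter a, and the 4 MCA-972 tumors. Which of these groupings, if any, was a batch of preparation or sequencing was not given. Some differences are therefore given within a run or within a set of indices. Pairs of lines that share no run, such as MCA-943 and MCA-970, cannot be compared within a run.

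Protocadherins carry extracellular cadherin repeats that bind mostly to the same protocadherin on a neighbouring cell, and they are best known for cell sorting and wiring in the nervous system. The delta-1 group (Pcdh1, Pcdh7 and Pcdh9 here) has a cytoplasmic motif that binds protein phosphatase 1. In the delta-2 group (Pcdh8, Pcdh10, Pcdh17, Pcdh18 and Pcdh19), several members recruit the WAVE complex, which drives branching of actin filaments. Pcdh12, also called vascular endothelial cadherin-2, and Pcdh20 are usually placed outside both groups. The genes lie on 5 chromosomes, with Pcdh8, Pcdh17, Pcdh20 and Pcdh9 in that order within 14.1 Mb of chromosome 14, Pcdh10 and Pcdh18 4.31 Mb apart on chromosome 3, and Pcdh1 and Pcdh12 55.0 kb apart on chromosome 18, outside the clusters. Gene coordinates below are those of GENCODE release M21 on GRCm38, from the first to the last annotated exon.

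Total counts per tumor ran from 27745104 to 46537062, which makes a floor of 3 counts about 0.0792 to 0.0908 CPM on average in a line. CPM, the usual depth-scaled count, was taken over library sizes scaled with TMM, a trimmed mean of ratios between samples. All 8 fibroblast markers were detected in every tumor, with a summed level of 5309 to 56472 CPM, and the sum was 49258 to 56472 CPM in MCA-943 against 7542 to 12752 CPM in MCA-948. The 10 leukocyte markers summed to 8.54 to 154 CPM, and the 7 skeletal muscle markers to 17.03 to 70.60 CPM. Of the muscle markers, Chrna1 (23.8 to 49.5 CPM in line means) and Acta1 (0.779 to 4.10 CPM) were found in every tumor, while Myod1, Myog, Pax7 and Myf5 were at 0 in 22 to 29 of the 30 tumors. In such bulk samples, fewer cells of a type and less RNA per cell cannot be told apart.

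Per kilobase of gene length, the family was led by the same few genes in each line. Pcdh18 ranked first in 21 tumors, including all tumors of MCA-948, MCA-970 and MCA-972, Pcdh7 ranked first in 6 tumors of MCA-969, and Pcdh19 ranked first in 2 tumors of MCA-943 and in 1 of MCA-969. The summed level of the 10 genes was 75.4 ± 12.2 CPM per kb (SD, n = 6) in MCA-970 and 71.1 ± 2.36 CPM per kb (SD, n = 4) in MCA-943. It was 57.7 ± 8.09 CPM per kb (SD, n = 4) in MCA-972, 38.1 ± 7.59 CPM per kb (SD, n = 8) in MCA-948 and 36.8 ± 7.08 CPM per kb (SD, n = 8) in MCA-969. The 2 lines classed as non-sensitive thus stood near opposite ends of the summed level. The delta-2 genes held 54.3% ± 6.91 (SD, n = 8) of the sum in MCA-969, the lowest share, and 75.8% ± 1.23 (SD, n = 4) in MCA-972, the highest. Pcdh17 held 8.18% ± 2.72 (SD, n = 8) in MCA-948 and 0.113% ± 0.136 (SD, n = 4) in MCA-943.

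**Figure D1:**
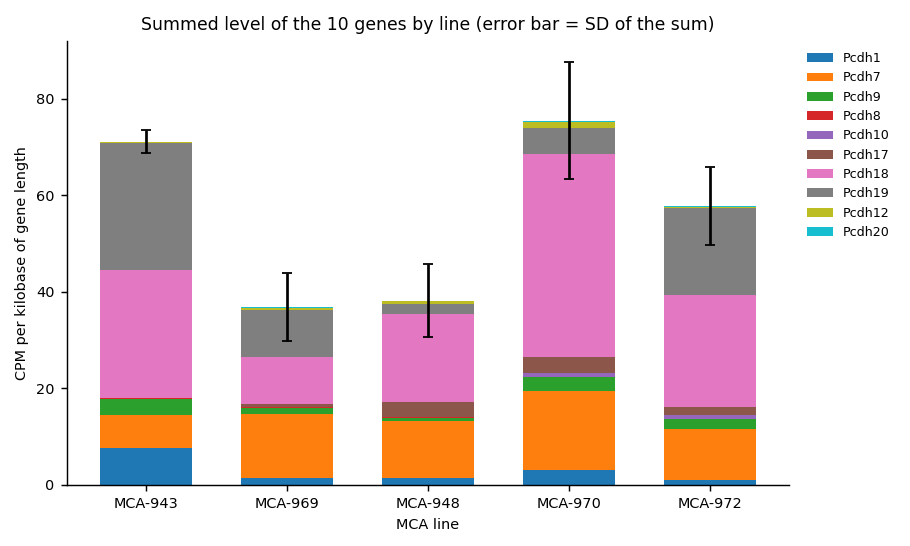
Bars give the mean CPM per kilobase of gene length of each of the 10 genes, stacked by line, and the error bar is the SD of the sum over the tumors of the line. Pcdh18 and Pcdh7 are present in every stack, Pcdh19 is large in MCA-943 and MCA-972, and the total runs from 36.8 CPM per kb in MCA-969 to 75.4 CPM per kb in MCA-970.

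Pcdh17 (ENSMUSG00000035566, chr14:84443563-84539002, plus strand), a delta-2 protocadherin known for controlling presynaptic assembly and axon extension, was high in all 3 sensitive lines. It measured 26.9 to 34.6 CPM in MCA-970 (median 30.1, n = 6) and 10.8 to 40.9 CPM in MCA-948 (median 32.7, n = 8). In MCA-972 the 4 tumors measured 12.48, 15.63, 12.02 and 23.19 CPM (a-1, a-1G, 2G and a-R). All of these were above the 2.01 to 10.7 CPM of MCA-969 (median 5.08, n = 8), although the highest MCA-969 tumor (a-2D, 10.7 CPM) and the lowest MCA-948 tumor (W-2G, 10.8 CPM) were nearly level. In MCA-943 it measured 0.237, 0.296, 0.378 and 2.20 CPM (W-2G, a-1D, a-1G and a-R), which are 7, 12, 10 and 90 counts. Tumor a-R alone reached the range of MCA-969, and 3 of the 4 MCA-943 tumors were below every tumor of the other lines.

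By line means, Pcdh17 was 38.2, 39.2 and 20.3 times as high in MCA-948, MCA-970 and MCA-972 as in MCA-943, and 4.85, 4.98 and 2.58 times as high as in MCA-969. These 6 ratios describe the values for which the gene was chosen. The log2 differences from MCA-943 were -5.17, -5.21 and -4.26, and without tumor a-R they were -6.61, -6.65 and -5.70. Those from MCA-969 were -2.27, -2.31 and -1.36, and without the tumors W-1D and W-2D they were -2.25, -2.28 and -1.33. Within the single runs that hold both lines, the differences were -5.19 (MCA-943 minus MCA-948, run 3), -2.32 (MCA-969 minus MCA-948, run 2), -2.37 (MCA-969 minus MCA-970, run 2) and -1.34 (MCA-969 minus MCA-972, run 1). Among the tumors with sample indices 3 to 24 they were -5.23 and -5.24 for MCA-943 and -2.54 and -2.55 for MCA-969, against MCA-948 and MCA-970, and among those with indices 1 to 8 the difference of MCA-969 minus MCA-972 was -1.15.

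The differences of Pcdh17 that its choice did not use were tested. Within the non-sensitive class it was lower in MCA-943 than in MCA-969 by -2.90 ± 0.49 on the log2 scale (SE; edgeR quasi-likelihood test with Benjamini-Hochberg adjustment over all genes, adjusted p = 1.08e-05), a difference called at an adjusted p under 0.05 with at least 1 on the log2 scale. Without tumor a-R of MCA-943 it was -4.33, again called. Within the sensitive class no pair passed that call. The difference was -0.04 for MCA-948 minus MCA-970, with a 95% interval from -0.68 to 0.61. It was 0.91 for MCA-948 minus MCA-972 (interval 0.14 to 1.68, adjusted p = 0.0446 in the same edgeR test), under the threshold on size. For MCA-970 minus MCA-972 it was 0.95 (interval 0.15 to 1.75, adjusted p = 0.0563 in that test), which missed both thresholds. The intervals are not adjusted.

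Pcdh10, Pcdh17 and Pcdh19 had the 3 widest ranges of line means on the log2 scale, and the 250 bases before their annotated starts (RefSeq, GRCm38.p6) are shown because the level of these 3 genes differed most between lines. Capitals mark each CG dinucleotide.
Pcdh17, chr14:84443313-84443562, plus strand: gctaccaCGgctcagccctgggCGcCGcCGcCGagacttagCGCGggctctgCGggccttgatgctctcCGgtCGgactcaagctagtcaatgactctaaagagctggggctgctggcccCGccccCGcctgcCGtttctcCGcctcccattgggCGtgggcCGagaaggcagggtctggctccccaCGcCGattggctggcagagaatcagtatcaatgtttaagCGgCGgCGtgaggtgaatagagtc
Pcdh10, chr3:45378148-45378397, plus strand: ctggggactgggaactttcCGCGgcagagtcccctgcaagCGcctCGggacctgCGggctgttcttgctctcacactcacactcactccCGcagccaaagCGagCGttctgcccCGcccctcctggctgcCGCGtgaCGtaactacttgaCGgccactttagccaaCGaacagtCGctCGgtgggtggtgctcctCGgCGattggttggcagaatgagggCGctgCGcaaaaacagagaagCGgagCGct
Pcdh19, chrX:133688994-133689243, minus strand: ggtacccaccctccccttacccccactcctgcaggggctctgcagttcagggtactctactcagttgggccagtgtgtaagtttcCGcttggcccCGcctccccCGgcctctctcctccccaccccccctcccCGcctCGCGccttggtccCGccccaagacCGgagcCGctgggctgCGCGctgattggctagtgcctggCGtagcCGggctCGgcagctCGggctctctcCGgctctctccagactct
These windows held 21 (Pcdh17), 22 (Pcdh10) and 16 (Pcdh19) CG dinucleotides, against a median of 6 over 32841 windows of the same length, of which 16.4%, 14.8% and 25.4% held as many or more. Pcdh18 had 23, Pcdh9 18, Pcdh8 11, Pcdh7 7 and Pcdh20 3, and a relation of CG number to level was not tested. In the Pcdh7 window, 114 of the 250 bases lay within annotated exons of the gene. The motif CCAAT, searched on both strands after the sequences had been read, was in 7 of the 8 member windows and in 33.9% of all windows. GGGCGG on either strand was in 4 of 8 and in 32.7% of all, and TATAAA on either strand was in 1 of 8 (Pcdh8) and in 12.4% of all. Only these 8 of the 10 genes were matched in the promoter table.

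Pcdh10 (ENSMUSG00000049100, chr3:45378398-45435623, plus strand), a delta-2 member that recruits the WAVE complex and guides axons, showed the widest spread of all. It measured 11.3 to 21.3 CPM in MCA-970 (median 14.6, n = 6) and 11.55, 13.06, 12.85 and 20.02 CPM in MCA-972 (a-1, a-1G, 2G and a-R). MCA-969 tumors ran from 0 to 3.84 CPM (median 1.014, n = 8) and MCA-948 tumors from 0.0611 to 0.391 CPM (median 0.144, n = 8). The 4 MCA-943 tumors had 2, 2, 1 and 1 counts (W-2G, a-1D, a-1G and a-R). MCA-970 and MCA-972 lay together above every tumor of the other 3 lines, and they differed from each other by 0.07 (95% interval -0.83 to 0.96). From summed counts, Pcdh10 was 341 times as high in MCA-970 as in MCA-943 (exact 95% counting interval 157 to 930) and 327 times as high in MCA-972 (150 to 892), where the intervals cover counting error only. MCA-969 was above MCA-948 by 2.91 ± 0.48 (SE, adjusted p = 6.66e-06), although tumor W-2D of MCA-969 had 0 counts, at a floor for the line of 0.0812 CPM. MCA-948 tumors had only 2 to 15 counts, and Pcdh10 passed the filter on low counts through its higher lines. In run 2 alone, with 2 tumors of each, the difference of MCA-969 minus MCA-948 was 2.92 with an adjusted p of 0.142 in edgeR's quasi-likelihood fit.

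Pcdh19 (ENSMUSG00000051323, chrX:133582860-133688987, minus strand), the X-linked delta-2 member whose loss in heterozygous females is known for causing epilepsy, was highest in MCA-943. Its 4 tumors measured 252, 297, 274 and 272 CPM (W-2G, a-1D, a-1G and a-R), above all 4 tumors of MCA-972, which measured 141, 185, 217 and 207 CPM (a-1, a-1G, 2G and a-R). MCA-969 followed at 49.2 to 136 CPM (median 109, n = 8), then MCA-970 at 48.4 to 61.7 CPM (median 59.8, n = 6) and MCA-948 at 15.7 to 29.6 CPM (median 20.2, n = 8). Only MCA-969 and MCA-970 overlapped among neighbours in this order. MCA-943 exceeded MCA-948 by 3.62 ± 0.20 on the log2 scale (SE, adjusted p = 2.03e-15), and in run 3 alone by 3.48. The order of the line means for Pcdh19 was thus not that of Pcdh17, since MCA-943 was at opposite ends of the lists. Xist, expressed from the inactive X chromosome, averaged 551 and 481 CPM in MCA-943 and MCA-972, the pair of lines with the most Pcdh19, and 0.0488 to 0.179 CPM in the other 3 lines, and the part of sex in the Pcdh19 levels was not tested.

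Pcdh18 (ENSMUSG00000037892, chr3:49743296-49757325, minus strand), a delta-2 member that binds the adaptor Dab1, ranged over 4.32-fold in line means. MCA-970 had the most, 159 to 312 CPM (median 208, n = 6), above the 144, 143, 135 and 149 CPM of MCA-943 (W-2G, a-1D, a-1G and a-R). MCA-972 measured 105, 132, 120 and 141 CPM (a-1, a-1G, 2G and a-R), MCA-948 68.9 to 142 CPM (median 88.0, n = 8) and MCA-969 26.3 to 71.6 CPM (median 54.5, n = 8). MCA-969 was the lowest line, below MCA-970 by -2.11 ± 0.19 (SE, adjusted p = 1.91e-10) and below MCA-943 by 1.45 ± 0.21 on the log2 scale (SE, adjusted p = 7.13e-07). Pcdh8 (ENSMUSG00000036422, chr14:79766775-79771312, minus strand), a delta-2 member known from somite formation and activity-dependent synapse remodelling, was scarce, with 0 to 25 counts a tumor. It had more than 3 counts in all 4 MCA-972 tumors and in 1 of 8 MCA-948 tumors, and tumors of MCA-969 and MCA-972 carried it past the filter on low counts. Its log2 differences past the threshold were -3.27 for MCA-948 minus MCA-972, 2.43 for MCA-969 minus MCA-948 and -1.76 for MCA-970 minus MCA-972, and since the filter kept the gene through its higher lines they support nothing about the family. With no filter the first 2 were called and the last was not, nor was it called by DESeq2, by limma-voom or without tumor a-R of MCA-972, and with the sample index set as a covariate none of the 3 was called.

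Pcdh1 (ENSMUSG00000051375, chr18:38185914-38212053, minus strand), a delta-1 member known as an airway epithelial adhesion protein and a hantavirus entry receptor, was highest in MCA-943. The 4 MCA-943 tumors measured 69.9, 58.3, 65.8 and 73.1 CPM (W-2G, a-1D, a-1G and a-R), above every other tumor. MCA-970 followed at 14.3 to 37.8 CPM (median 27.6, n = 6). The remaining 3 lines overlapped, with 3.96 to 22.5 CPM in MCA-948 (median 10.3, n = 8), 5.57 to 17.7 CPM in MCA-969 (median 10.7, n = 8) and 5.71 to 11.2 CPM in MCA-972 (5.71, 8.24, 8.39 and 11.2 for a-1, a-1G, 2G and a-R). MCA-943 exceeded MCA-972 by 2.99 ± 0.48 (SE, adjusted p = 5.58e-06) and MCA-970 by 1.37 ± 0.40 (SE, adjusted p = 0.00408), and with library run as a covariate the latter was 1.59 and not called (adjusted p = 0.0548). Within lines, Pcdh1 followed the endothelial markers described below for Pcdh12, with r = 0.961 in MCA-948, 0.926 in MCA-969 and 0.956 in MCA-970, noticed after its values were seen and not tested. In MCA-970 that r can rest largely on tumors W-1D and W-R. Their endothelial sums were 318 and 277 CPM, against 525 to 566 CPM in the rest. Their Pcdh1 was 16.9 and 14.3 CPM, against 26.9 to 37.8 CPM. With the endothelial score as a covariate, the differences of MCA-943 from the other 4 lines stayed called at 2.66 to 3.31. Those of MCA-970 were not called, at 0.62 over MCA-972 (1.62 without the covariate), -0.38 for MCA-948 minus MCA-970 and -0.64 for MCA-969 minus MCA-970. With library run as a covariate these differences of MCA-970 were not called either, and the cause was not tested.

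Pcdh7 (ENSMUSG00000029108, chr5:57717967-58133230, plus strand), the delta-1 member known for binding the phosphatase regulator Set, was the steadiest. Its line means ran from 73.3 CPM in MCA-943 to 175 CPM in MCA-970, a 2.38-fold range, and its single call was MCA-943 below MCA-970 (-1.25 ± 0.15, SE, adjusted p = 2.46e-08). The 4 MCA-943 tumors, at 64.6 to 82.2 CPM, lay below every tumor of the other lines, whose lowest was 96.2 CPM. Exons of Pcdh7 overlap a gene on the opposite strand, 4932441J04Rik, which had 22 to 102 counts a tumor, and strand use in counting was not stated. The antisense neighbours of Pcdh8 and Pcdh10 had 0 counts and that of Pcdh19 0 to 9. Pcdh9 (ENSMUSG00000055421, chr14:93013410-93890679, minus strand), the third delta-1 member, which the nervous system expresses broadly, was higher in MCA-943 (16.6 to 29.1 CPM, n = 4), MCA-970 (12.5 to 28.8 CPM, n = 6) and MCA-972 (11.4 to 16.8 CPM, n = 4) than in MCA-948 (1.957 to 8.577 CPM, n = 8). MCA-969 lay between, at 2.38 to 17.5 CPM (n = 8), and overlapped all of them. MCA-943 was above MCA-948 by 2.40 ± 0.37 (SE, adjusted p = 2.06e-06). The smallest called difference, MCA-969 above MCA-948 by 1.03, was -0.16 in run 2 alone and 0.86, not called, among sample indices 3 to 24. In MCA-948, the tumors of run 2 measured 8.577 and 7.203 CPM, and those of run 3 at most 5.71 CPM. The called difference of MCA-948 minus MCA-972 was -1.63. With library run or sample index set as a covariate it lay between -1.32 and -0.34 and was not called. MCA-948 minus MCA-970 went from -2.16 to -1.26, not called, in run 2 alone, and the part of run was not tested.

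Pcdh12 (ENSMUSG00000024440, chr18:38267089-38284402, minus strand), expressed mainly by endothelial cells, varied more between tumors of a line than most members. It measured 2.26 to 11.2 CPM in MCA-970 (median 8.51, n = 6), 0.521 to 7.12 CPM in MCA-948 (median 2.06, n = 8) and 1.15 to 4.44 CPM in MCA-969 (median 2.54, n = 8). In MCA-943 it measured 1.56, 0.937, 1.29 and 3.21 CPM (W-2G, a-1D, a-1G and a-R), and in MCA-972 0.682, 1.71, 1.69 and 2.73 CPM (a-1, a-1G, 2G and a-R). All 5 lines overlapped. MCA-970 was called above each of the other lines, most widely above MCA-972 (2.13 ± 0.68, SE, adjusted p = 0.0108). The call above MCA-948, at 1.23 in size, was lost in 15 alternatives, 9 of which left out 1 tumor. Pcdh20 (ENSMUSG00000050505, chr14:88464743-88471396, minus strand), whose human counterpart is known as a Wnt pathway antagonist, was low everywhere, at 9 to 89 counts a tumor. Its means were 1.52 CPM in MCA-969, 1.38 in MCA-970, 0.801 in MCA-972, 0.506 in MCA-948 and 0.484 in MCA-943, and the MCA-970 tumors all lay above those of the last 3 lines. It was called higher in MCA-969 and in MCA-970 than in MCA-943 and in MCA-948, by 1.44 to 1.63 in size on the log2 scale. With library run as a covariate, MCA-969 minus MCA-948 (1.07) and MCA-943 minus MCA-969 (-1.15) were not called.

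**Figure D2:**
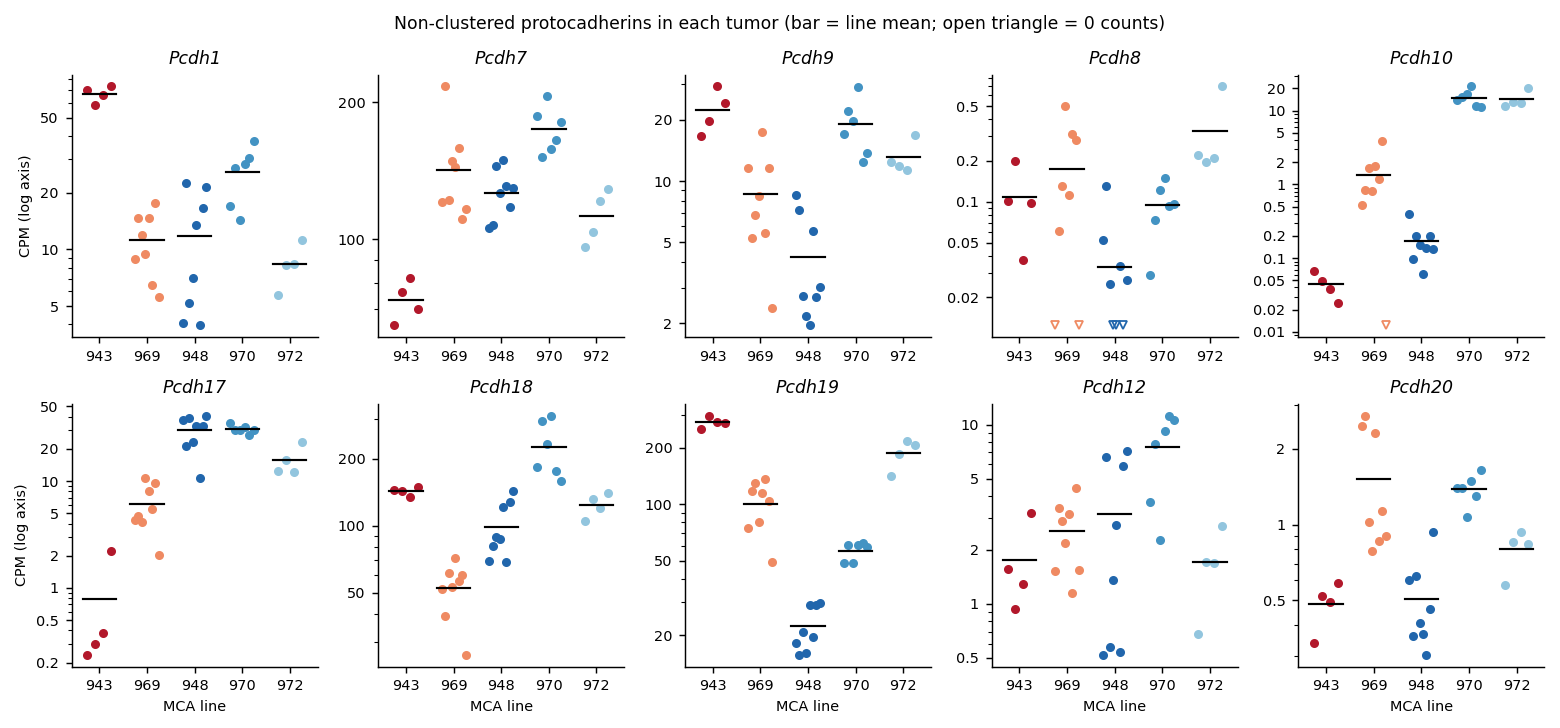
Each panel plots the CPM of 1 gene on a log axis in the 30 tumors by MCA line, with points for tumors, bars for line means and open triangles for tumors with 0 counts. Pcdh17 is lowest in MCA-943, where tumor a-R (2.20 CPM) stands above the other 3 tumors (0.237 to 0.378 CPM), Pcdh10 is high in MCA-970 and MCA-972, and Pcdh1 and Pcdh19 are highest in MCA-943.

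Counted over comparisons, the family differed between lines in both directions, and no member tested was called higher, or called lower, every time a non-sensitive line was set against a sensitive one. Without Pcdh17, MCA-943 against MCA-948 had 3 of 9 members called, all higher, where 29% of the 16862 tested genes were called. Against MCA-970 it was 6 of 9, 2 higher (Pcdh1 and Pcdh19) and 4 lower (Pcdh7, Pcdh10, Pcdh12 and Pcdh20), beside 27.3% of genes. Against MCA-972 it was 2 of 9, Pcdh1 higher and Pcdh10 lower, beside 25.6%. MCA-969 against MCA-948 had 5 of 9 called, all higher (Pcdh8, Pcdh9, Pcdh10, Pcdh19 and Pcdh20), beside 20.8%, and against MCA-970 it had 5 of 9, all lower (Pcdh1, Pcdh9, Pcdh10, Pcdh12 and Pcdh18), beside 21.4%. Against MCA-972 it had 2 of 9, both lower (Pcdh10 and Pcdh18), beside 20.6%. These 6 comparisons share lines, so they are not independent.

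Across those 6 comparisons, no member other than Pcdh17 was lower in the non-sensitive line each time. Pcdh10 came nearest, with a negative difference in 5 of 6 that was called in 4, but it was called higher in MCA-969 than in MCA-948. Pcdh10 passed the filter on low counts through its higher lines, and each MCA-943 tumor had only 1 or 2 counts of it. Its calls were also made with no filter, and their number is given as a description. Pcdh19 had a positive difference in 5 of 6, called in 3.

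Within classes, MCA-943 against MCA-969 had 7 of 10 members called, beside 27% of genes: Pcdh1, Pcdh9, Pcdh18 and Pcdh19 were higher and Pcdh10, Pcdh17 and Pcdh20 lower. MCA-948 against MCA-970 had 7 of 10, all lower (Pcdh1, Pcdh9, Pcdh10, Pcdh12, Pcdh18, Pcdh19 and Pcdh20), beside 29.4%. MCA-948 against MCA-972 had 4 of 10, all lower (Pcdh8, Pcdh9, Pcdh10 and Pcdh19), beside 26.8%, and MCA-970 against MCA-972 had 4 of 10, Pcdh1 and Pcdh12 higher and Pcdh8 and Pcdh19 lower, beside 17.6%. Called members numbered 4 to 7 of 10 between lines of the same class, beside 17.6% to 29.4% of genes. They numbered 2 to 6 of 9 between lines of different classes, beside 20.6% to 29% of genes. These 2 ranges cannot be set against each other, since Pcdh17 was counted only between lines of the same class. The 3 pairs with a Pcdh8 call had, without that gene, 4 of 8 (MCA-969 against MCA-948), 3 of 9 (MCA-948 against MCA-972) and 3 of 9 (MCA-970 against MCA-972). The median absolute log2 difference of the members, with the described Pcdh17 values left out, was 0.71 to 1.78 over the 10 pairs, and that of all tested genes 0.42 to 0.62. The 1.78, for MCA-943 minus MCA-948, was the value of Pcdh8 itself, which was scarce and not called there. The next highest median was 1.44, for MCA-943 minus MCA-969. For MCA-969 minus MCA-972 the median, 0.84, was also the value of Pcdh8. Of the 45 called differences, 43 were called with no filter on low counts.

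**Figure D3:**
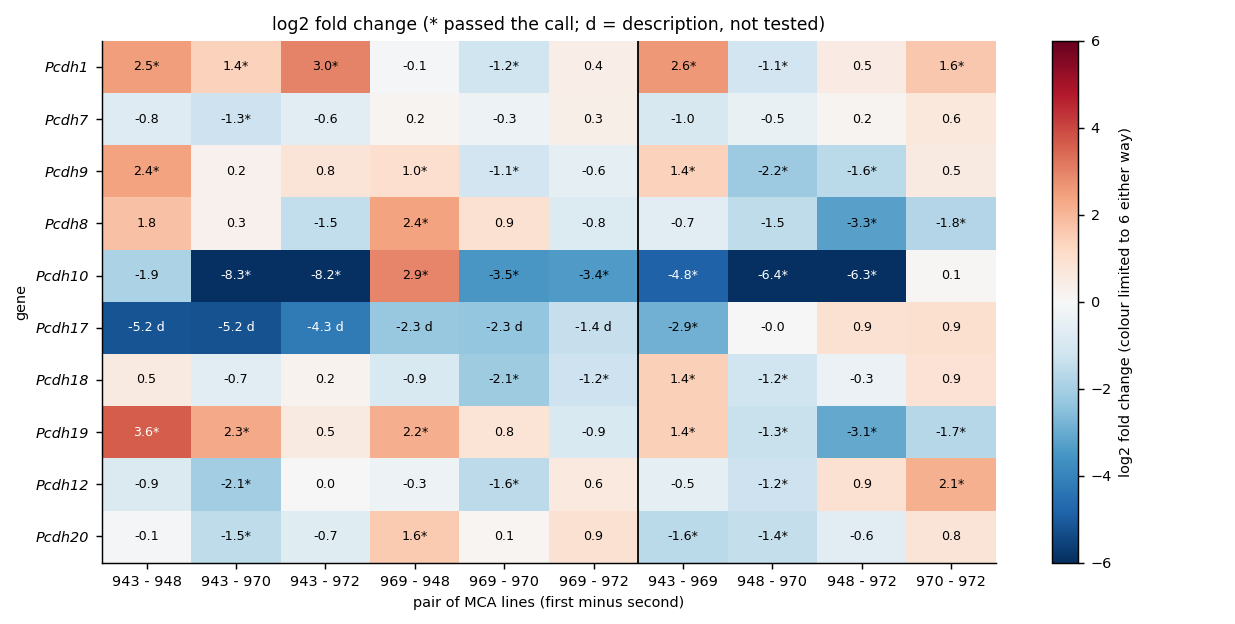
Each cell gives the log2 fold change of 1 gene (row) between the lines of 1 pair (column, first minus second), with red for higher and blue for lower in the first line. The 6 pairs left of the vertical line set a non-sensitive against a sensitive line, a star marks a called difference, and d marks the 6 Pcdh17 values given as a description. Pcdh10 reaches -8.31, and Pcdh17 is negative in all 6 columns on the left.

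The title letters were compared within lines, W against a, over 26 tumors. None of the 9 members tested was called (Pcdh8 did not pass the filter on low counts), where 0.23% of 16557 genes were called. At an unadjusted p under 0.05, edgeR and DESeq2 each gave 1 member and limma-voom 2, and neither of the latter 2 tools called any. The value nearest the threshold was Pcdh12, at -0.87 ± 0.39 for W minus a (SE, adjusted p = 0.632). Whether the letter difference varied between MCA-948, MCA-969 and MCA-970 was tested as an interaction, in which 0.0946% of 15853 genes passed. No member passed (0 of 9, and 0 at an unadjusted p under 0.05), and the lowest adjusted p was 0.407, for Pcdh12 (edgeR quasi-likelihood test).

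Pcdh12, Pcdh17 and Pcdh18 were set against endothelial, mural and leukocyte marker scores within the 3 lines of 6 or more tumors, 27 relations in all. Pcdh12 rose with the endothelial score in MCA-948 (Pearson r = 0.967, n = 8, exact permutation p = 0.000893, adjusted p = 0.0217; Spearman rho = 0.905, adjusted p = 0.123). In MCA-969 r was 0.868 (n = 8, exact permutation p = 0.00568, adjusted p = 0.0383; rho = 0.810, adjusted p = 0.147). The same gene rose with the mural score in MCA-948 (r = 0.938) and in MCA-969 (r = 0.888), both with an adjusted permutation p of 0.0217. Without the 2 tumors farthest from the median score, r with the endothelial score was 0.975 in MCA-948 and 0.689 in MCA-969. Within the larger run it was 0.999 in MCA-948 (run 3, n = 6, exact permutation p = 0.00139) and 0.813 in MCA-969 (run 1, n = 6, exact permutation p = 0.0389), and the other runs held 2 tumors each. By sample index, all MCA-948 and all MCA-970 tumors lay in one set, and each set held 4 MCA-969 tumors, too few for a value. In MCA-970 r was 0.982 (n = 6, exact permutation p = 0.0153, adjusted p = 0.0750), but 0.231 without the 2 farthest tumors, so it rests on those.

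Of the 27 relations of these 3 genes, 4 passed, all of Pcdh12 and all by Pearson's r, and none passed by Spearman's rho. The other 7 members were not tested, and as a description Pcdh1 had r from 0.926 to 0.961 with the endothelial score in the 3 lines, as high as Pcdh12, Pcdh19 had 0.948 and Pcdh7 -0.834 in MCA-970, and the remaining values of the untested members lay between -0.396 and 0.770. In MCA-970, tumors W-R and W-1D had endothelial sums of 277 and 318 CPM and the rest 525 to 566 CPM. The values of r in that line can therefore rest largely on those 2 tumors. Pcdh17 had r from -0.374 to 0.551 with the endothelial score over the 3 lines and Pcdh18 from 0.0491 to 0.581, with the lowest adjusted permutation p of the 18 relations of the pair at 0.422. In run 3 of MCA-948 (n = 6), r of Pcdh18 was 0.937 with the endothelial score and 0.965 with the mural score. In run 1 of MCA-969 (n = 6) the values were -0.00323 and -0.0612, and in MCA-970 (n = 6) they were 0.0491 and 0.152. These values within runs are a description. The endothelial markers summed to 277 to 566 CPM in MCA-970 and to 62.3 to 163 CPM in MCA-972, and all 10 were detected in every tumor. With the endothelial score as a covariate, none of the 4 called differences of Pcdh12 was called, and MCA-970 minus MCA-972 went from 2.13 to 0.45. With library run as a covariate, none of those 4 was called either, and the cause was not tested. Under the endothelial covariate the Pcdh17 difference of MCA-943 minus MCA-969 was -2.74 ± 0.48 (SE, adjusted p = 1.49e-05). In MCA-943, tumor a-R, the one with the most Pcdh17 (2.20 CPM) and Pcdh12 (3.21 CPM), also had the highest endothelial sum, 154 CPM against 66.7 to 95.4 CPM in the other 3, and the part of endothelial RNA in its Pcdh17 level was not tested.

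**Figure D4:**
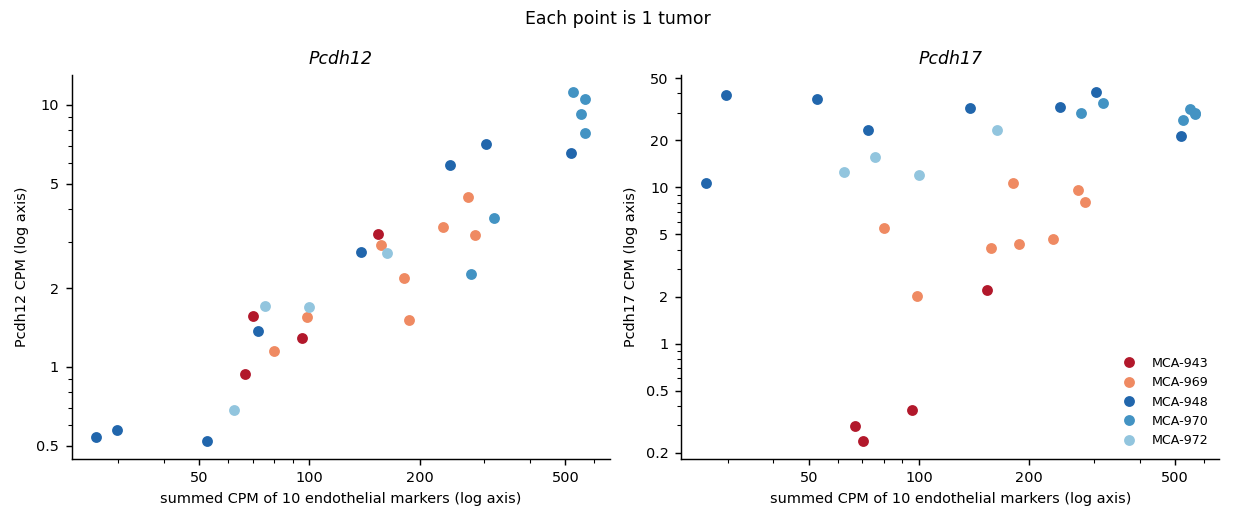
Points are the 30 tumors coloured by line, with the summed CPM of 10 endothelial markers on a log axis against the CPM of Pcdh12 (left) and Pcdh17 (right) on log axes. Pcdh12 is higher where the endothelial sum is higher, and the MCA-943 tumors lie at the bottom of the Pcdh17 panel at endothelial sums of 66.7 to 154 CPM.

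Genes for proteins that act with these receptors were counted the same way. Of the 11 WAVE complex genes, 1 to 3 were called in each of the 10 pairs, where 17.6% to 29.4% of all genes were called per pair. That is 14.5% of all tests of the list, and 12% without Wasf3, beside 47.9% of all tests of the members and 50.0% without Pcdh8. Both shares of the members include Pcdh10, called in 8 pairs, which passed the filter through its higher lines. Wasf3, an actin-nucleation-promoting subunit, was measurable only in MCA-969, through which it passed the filter (7.41 CPM on average against at most 0.0137 CPM in the other lines, with 17 of 30 tumors at 0). Cyfip2, which links the complex to Rac, was called in 5 pairs, with its lowest mean in MCA-948 (1.72 CPM) and its highest in MCA-972 (6.34 CPM). Abi3, an adaptor subunit, was called in 4 pairs and averaged 1.95 CPM in MCA-943 and 0.516 CPM in MCA-972. The rest of the complex stayed within the threshold in at least 8 of 10 pairs, and Wasf1, Wasf2, Nckap1, Abi1, Abi2 and Brk1 in all. Of the 9 other partners, 0 or 1 was called per pair, and Cdh2 (N-cadherin, with which Pcdh19 and Pcdh8 associate) was called in 4 pairs, all with MCA-943 as the lower line. Dab1 did not pass the filter. These counts are a description, and the lists were not tested against each other.

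Among relatives, Pcdh11x, the delta-1 gene that is not one of the 10, was found almost only in MCA-972, with 32, 50, 26 and 44 counts (a-1, a-1G, 2G and a-R) against 0 to 6 in MCA-970, 0 or 1 in MCA-969 and 0 in every tumor of MCA-943 and MCA-948. Against 3 counts a library, MCA-972 was at least 11.03-fold higher than MCA-943 and at least 12.1-fold higher than MCA-948. Of the 57 clustered protocadherins, 41 passed the filter, and 17 to 25 of those were called per pair, 53.9% of all tests of the list, beside the 17.6% to 29.4% of all genes.

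The genes most like Pcdh17 across the 30 tumors, by Pearson's r of log2 CPM, were Bend7 (0.948), Gon4l (0.920), Appbp2 (0.911), Diras2 (0.906) and Intu (0.904). Bend7 averaged 0.0184 CPM in MCA-943, 0.724 in MCA-969 and 4.06 to 5.70 in the sensitive lines, and Diras2, a Ras-family GTPase, 0.0571, 0.735 and 3.52 to 5.12 CPM. Of the family, Pcdh7 came nearest (r = 0.646, rank 792 of all genes) and Pcdh19 was the farthest on the negative side (r = -0.669). Those most like Pcdh10 were Aass (0.963), Pabpc4l (0.960), Pisd-ps2 (0.957), Kctd8 (0.956) and Jakmip2 (0.956). Pabpc4l averaged 3.94 CPM in MCA-970, 9.10 in MCA-972 and 0.0330 to 0.495 in the other 3 lines. These correlations describe mainly the 5 line means, since the tumors of a line share their origin. Within lines, as deviations from line means over the 30 tumors, the closest pair of members was Pcdh1 and Pcdh12 (r = 0.954), followed by Pcdh18 and Pcdh19 (r = 0.669) and Pcdh9 and Pcdh10 (r = 0.600).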

How the data were processed

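The authors aligned the reads to GRCm38 with STAR 2.5.3a and made the deposited raw counts per gene with featureCounts (version 1.5.2 in the submitters' processing notes), from reads whose column names mark molecular identifiers and removed duplicates. Strand settings were not given in the sources used here. All values below were computed from these counts for 30 tumors, mapped by their titles, and no column was left unmapped.

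Gene identifiers were named through GENCODE release M21, which matched 48058 of 48440. Genes past edgeR's filterByExpr (16862, with all 10 members) were normalised by TMM and fitted with 1 mean per line in edgeR 4.0.16 (R 4.3.3), using glmQLFit and glmQLFTest with Benjamini-Hochberg adjustment over all genes tested. A difference was called at an adjusted p under 0.05 and at least 1 on the log2 scale. Fold changes carry a standard error worked back from the test's F statistic, and their 95% intervals assume a normal spread. Pcdh17 was not tested between the classes, since it was chosen on those differences. The common biological coefficient of variation was 0.221. The lines' depth gives wide counting error only below a few CPM, and counting intervals are exact, at the 95% level. The p-values measure the spread between tumors of 1 line, and the labels do not say whether these came from separate cultures.

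The title letters were fitted in 26 tumors with line as a covariate, and the interaction in 22. Relations with marker scores (mean log2 CPM, prior count 2) used exact permutation tests, two-sided, over all orders of the tumors, computed with numpy 2.4.6. Ranks were taken with scipy 1.17.1. Promoter sequences are from RefSeq, 250 bases before the start. Named genes were the 10 members whatever their values, Pcdh11x, list genes called in at least 4 of 10 pairs, sex genes beside Pcdh19, and the 5 genes most correlated with Pcdh17 and with the other member of widest range, Pcdh10. Members and lists were chosen with earlier results of these data known.

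Alternatives were DESeq2 size factors, other filters, DESeq2 1.42.0, limma-voom (limma 3.58.1), library run, letter, animal code or endothelial score as a term, single pairs or runs, no threshold on size, and leaving out each tumor. Leaving out both MCA-969 tumors labelled sensitive, and the 2 sets of sample indices in the headers as a covariate or singly, were added after seeing the data. The fits were tested on simulated data. Animal codes in the titles were checked for pairing. Deviations from line means of tumors with the same code had correlations of -0.43 to 0.41 (median 0.0248, 29 pairs), and the codes were not taken as pairs.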

Additional observations from a re-analysis of the deposited data

Results flagged for a closer look

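On the log2 CPM scale (prior count 2), a tumor stood far from the rest in 2 of the 50 groups of 1 gene in 1 line, and chance flags about 1 in 20 groups. Pcdh8 in tumor a-R of MCA-972 had 25 counts (0.696 CPM), where the other 3 tumors had 8 counts each, and the gap was 0.921 of the group's log2 range. Pcdh10 in tumor W-2D of MCA-969 had 0 counts, where the other 7 tumors had 19 to 149, and the gap was 0.552 of the log2 range. W-2D is also 1 of the 2 MCA-969 tumors that the labels call sensitive, and it had the lowest Pcdh17 of the line (2.01 CPM). On the plain CPM scale the second did not stand apart, and the gap was instead large for the highest tumor in 6 groups, which include Pcdh8 in MCA-972 (0.955 of the range) and Pcdh17 in MCA-943, where a-R had 2.20 CPM (0.928 of the range).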

How the results depend on the processing

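Of the 45 called differences of members, 26 stayed called with the same sign in every alternative. The sign changed in 2 values of called differences, both of Pcdh9 for MCA-969 minus MCA-948, which was -0.16 with library run as a covariate and -0.16 in run 2 alone; the cause was not tested. With no threshold on size, the members called were 5 for MCA-943 minus MCA-948, 4 for MCA-943 minus MCA-972 and 5 for MCA-969 minus MCA-972, since smaller differences then count; 64.6%, 55.9% and 53.8% of all genes were called under the same rule. With library run as a covariate, 2 were called for MCA-969 minus MCA-948, 3 for MCA-969 minus MCA-970 and 2 for MCA-948 minus MCA-972, where 12.8%, 19.7% and 16.8% of all genes were called. In run 2 alone, which holds 2 tumors of MCA-948 and 2 of MCA-969, these were 1 for MCA-969 minus MCA-948, 2 for MCA-969 minus MCA-970 and 4 for MCA-948 minus MCA-970, beside 10.7%, 17.4% and 22.3% of all genes. With the endothelial score as a covariate, 3 were called for MCA-969 minus MCA-970, 4 for MCA-948 minus MCA-970 and 2 for MCA-970 minus MCA-972, beside 20.7%, 27.7% and 17.3%. With the sample index set as a covariate, 2 were called for MCA-970 minus MCA-972, beside 12.7%; the cause was not tested. On the CPM scale, 1 relation with marker scores passed in place of 4. Leaving out each tumor in turn gave 3 to 5 members called for MCA-969 minus MCA-948 (3 without W-1D of MCA-969). With the animal code as a replicate block, 3 were called for MCA-969 minus MCA-972 and 3 for MCA-970 minus MCA-972, where Pcdh12 lost its call. The 6 Pcdh17 differences between classes kept their sign in all 261 alternative values, and 3 moved by more than the spread, all without tumor a-R of MCA-943. These values refit the tumors on which Pcdh17 was chosen, so the kept sign is a description and no added support. With plain library totals the MCA-943 means were 59.9 CPM for Pcdh1, 65.7 for Pcdh7, 128 for Pcdh18 and 246 for Pcdh19. Depth limits Pcdh8 and, in MCA-943, Pcdh10.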
